A study of Mus musculus with 14 samples.

Results

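The synaptic vesicle release machinery was followed through 38 genes, chosen by name for their known roles, of the 20492 gene symbols in the deposited tables. A gene was the sum of the FPKM (fragments scaled by coding length and mapped total) of every coding-sequence row that carried its symbol. The 38 genes held 60 of 26348 rows, with 24 genes on a single row and 14 on several, up to 5. They comprised 10 vesicle proteins, 9 synaptotagmins and Doc2 proteins, 9 SNARE and fusion factors, 6 active zone proteins and 4 endocytosis proteins. The synaptotagmins and Doc2 proteins are called calcium sensors here, though not every one binds calcium.

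The study asked how neurons depend on protected telomeres, and compared mice in which TRF2, the telomere-binding shelterin protein encoded by Terf2, had been depleted with control mice. All were C57BL/6 and 3 months old, and total RNA came from whole cortex or whole hippocampus. The samples were 3 TRF2-depleted and 4 control cortices, and 3 TRF2-depleted and 3 control hippocampi. A further TRF2-depleted sample carried labels of both tissues and was placed in no group here. The authors may or may not have pooled it, so it may be part of any TRF2-depleted value, p or q given below. The Cre in the cohort's name is that of Dcx, a gene of migrating and immature neurons, and which cells of the tissue had recombined was not tested. The hippocampus table also held a condition headed DKO. The labels do not describe that condition, and its genotype, sample number and age are not stated here.

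Each table gave 1 pooled FPKM per condition, with the authors' own p-value and q-value per row, so no spread between samples could be computed. Depth is unknown. Summed FPKM lay between 159494 and 171147 over the 5 conditions. Terf2 itself summed to 0.202 FPKM in TRF2-depleted cortex, against 3.59 FPKM in control cortex. In hippocampus Terf2 summed to 0.753 FPKM in DKO, 0.883 FPKM in TRF2-depleted and 2.01 FPKM in control tissue, and the authors did not test it there. Its tested cortex row had p = 0.105 in the authors' deposited table. Rbfox3, which encodes the neuronal nuclear protein NeuN, lay between 22.0 and 30.0 FPKM in all 5 conditions. C1ql2, a marker of dentate granule neurons, had 19.2 FPKM in control hippocampus and 1.02 FPKM in control cortex.

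Neurotransmitter is stored in vesicles that are tethered and primed at the active zone by large scaffolds. A vesicle SNARE, synaptobrevin, zips together with the membrane SNAREs syntaxin and SNAP-25, complexins clamp the assembled bundle, and synaptotagmins trigger fusion when calcium enters. NSF and its adaptor SNAP then take the SNARE bundle apart, and clathrin adaptors, dynamin and synaptojanin retrieve the membrane. Many of these genes are kept silent outside neurons by the repressor REST, which binds the RE1 element, and TRF2 has been described as a partner of REST.

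For that reason the promoters of the 38 genes were searched for RE1 letters. RefSeq windows of 300 bases, 250 before and 50 after the start (GRCm38.p6), were at hand for 29 genes as 39 windows. Doc2a, Doc2b, Rims2, Snap25, Syn3, Syt4, Syt5, Syt7 and Vamp2 had no window in that table. The left part of RE1 (TTCAGCACC, either strand) was in 2 windows of these genes, those of Syn1 and Unc13a, or 5.13%, against 0.371% of all 32851 windows. The right part (GGACAGCGC, either strand) was in 1 window, that of Unc13a, or 2.56%, against 0.405% of all windows. These 2 are shown because they alone hold RE1 letters. The Syn1 stretch is chrX:20920919-20921168, minus strand, the 250 bases before the start, with the left part of RE1 and then the cyclic AMP response element TGACGTCA in capitals. The Unc13a stretch is chr8:71671727-71671752, minus strand, just after the start, where both parts lie in reverse orientation, first the right one and then the left one, in capitals.
Syn1: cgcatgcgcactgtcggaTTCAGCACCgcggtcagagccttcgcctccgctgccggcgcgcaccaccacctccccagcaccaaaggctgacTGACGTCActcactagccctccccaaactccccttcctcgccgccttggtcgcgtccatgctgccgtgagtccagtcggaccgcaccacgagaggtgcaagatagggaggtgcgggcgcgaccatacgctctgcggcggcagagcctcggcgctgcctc
Unc13a: GCGCTGTCCgcgcccccGGTGCTGAA

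Other letters were searched in the same windows on both strands. The cyclic AMP response element (TGACGTCA) was in 2 windows, those of Napa and Syn1, or 5.13%, against 1.79% of all windows. The Egr1 letters (GCGGGGGCG) were in 3 windows, those of Cplx1, Stxbp5 and Syn2, or 7.69%, against 2.91%. The GC box (GGGCGG) was in 24 windows of 23 genes, or 61.5%, against 35.7%, and a match to the Egr1 letters can share bases with one. The windows were also richer in G and C, with a median of 63% against 52.7% over all windows, and the part of base composition in these shares was not tested. A match is a stretch of letters and not a shown binding site. Neither gene with RE1 letters passed the test in any comparison. Syn1, which tethers vesicles in the reserve pool, summed to 96.8 FPKM in TRF2-depleted and 107 FPKM in control cortex, and to 81.4, 89.3 and 86.6 FPKM in TRF2-depleted, DKO and control hippocampus. Unc13a, the main vesicle priming factor of excitatory terminals, had 19.0 and 19.8 FPKM in TRF2-depleted and control cortex, and 20.5, 21.3 and 22.2 FPKM in TRF2-depleted, DKO and control hippocampus.

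A single gene of the 38 passed the authors' test, Doc2b, which was lower in TRF2-depleted hippocampus. A call means a deposited q of at most 0.05. In hippocampus, TRF2-depleted against control, 1 of 49 tested rows of these genes was called in the authors' deposited table, or 2.04%, against 0.163% of all 11054 tested rows. The call in the authors' deposited table was on 0 of 42 tested rows in cortex (0.304% of all rows), 0 of 48 for DKO against control hippocampus (0.181%) and 0 of 48 for DKO against TRF2-depleted hippocampus (0.154%). At an unadjusted p under 0.05 the counts in the authors' deposited table were 1 of 42 in cortex, or 2.38% against 6.24% of all rows, and 3 of 49 in TRF2-depleted hippocampus, or 6.12% against 4.89%. They were 3 of 48 for DKO against control, or 6.25% against 6.71%, and 1 of 48 for DKO against TRF2-depleted, or 2.08% against 4.79%. These shares were near or below those of all rows. The 3 hippocampal comparisons share conditions and are not independent of each other.

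Over the 38 genes the median log2 ratio of TRF2-depleted over control was -0.03 in cortex, where that of all genes was -0.02, and -0.02 in hippocampus, where that of all genes was 0.01. DKO over control had a median of 0.00, against 0.02 for all genes, and DKO over TRF2-depleted 0.04, against 0.01. Leaving aside Syt2, which was near 0, 12 genes were higher and 25 lower in TRF2-depleted than in control cortex, and 16 higher and 21 lower in TRF2-depleted than in control hippocampus. In DKO hippocampus 18 were higher and 19 lower than in control, and 23 were higher and 14 lower than in TRF2-depleted tissue. Of all genes with a value in both conditions, 46.2% were higher in TRF2-depleted cortex and 51.6% in TRF2-depleted hippocampus. For DKO it was 52.6% over control and 51.2% over TRF2-depleted tissue. The differences from these shares were not tested. Of the 38 genes, those with at least 5 FPKM in 1 of the conditions compared were counted within 1.2-fold. Between TRF2-depleted and control tissue these were 27 of 29 in cortex and 26 of 31 in hippocampus. Those are 93.1% and 83.9%, against 79.6% and 77.3% of all genes at that level. For DKO against control it was 25 of 30, or 83.3%, against 76.0%. Syp, Nsf and Synj1 in cortex lay under that limit, with log2 ratios of 1.18, 1.18 and -1.01. So did Rph3a for DKO against control, at -7.89. Over all 38 genes the counts were 31 in TRF2-depleted cortex, 28 in TRF2-depleted hippocampus and 27 for DKO over control. Those are 81.6%, 73.7% and 71.1%, against 59.4%, 56.4% and 56.0% of all genes with a value in both conditions. Summed FPKM of the 38 genes was 2579 in TRF2-depleted and 2588 in control cortex, and 2749, 2800 and 2720 in TRF2-depleted, DKO and control hippocampus.

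**Figure D1:**
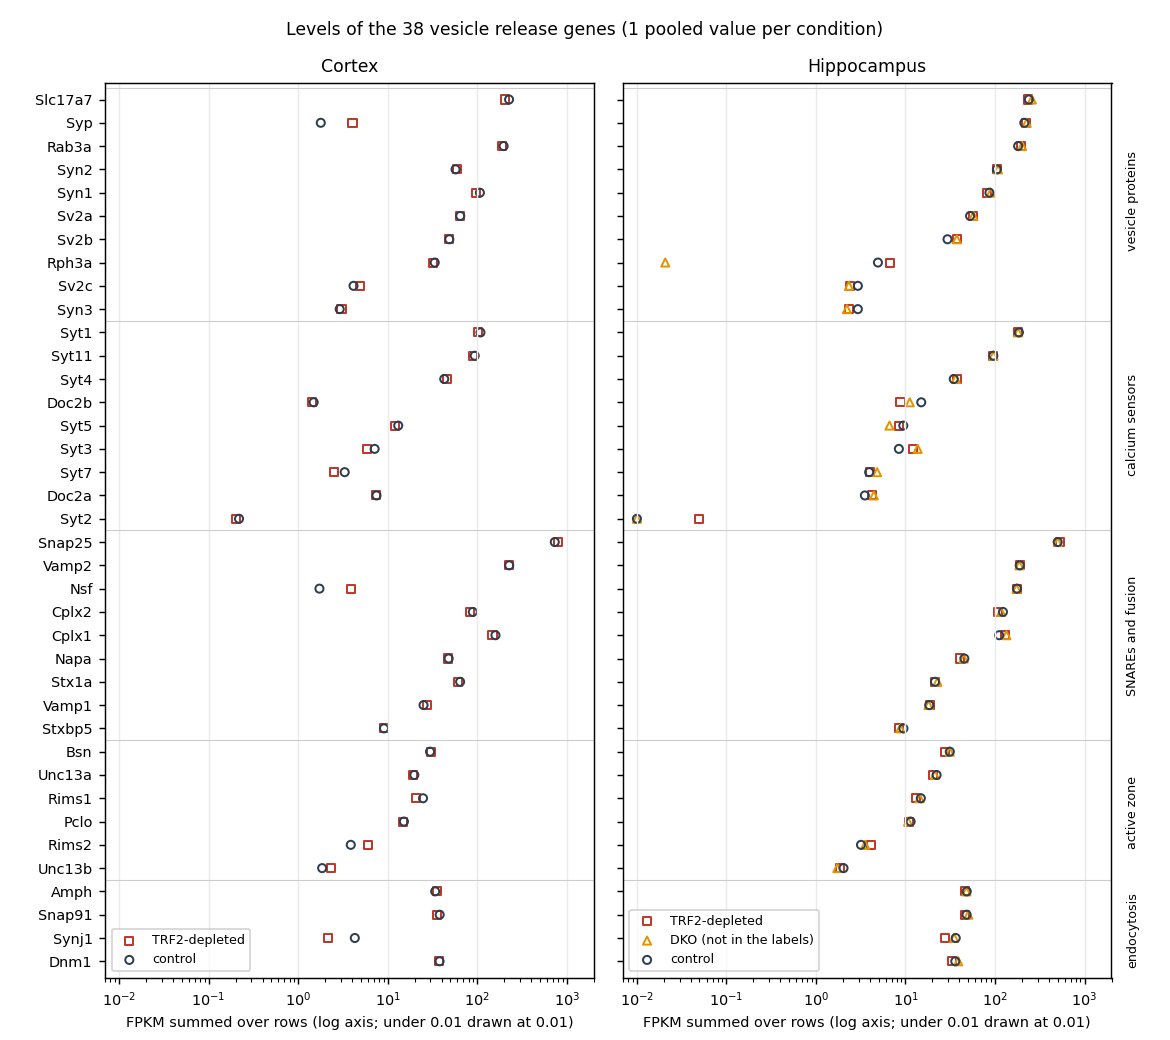
Summed FPKM of each of the 38 genes on a log axis, 1 pooled value per condition, in cortex (left) and hippocampus (right); squares are TRF2-depleted, triangles DKO and circles control, and values under 0.01 FPKM are drawn at 0.01. Symbols of most genes overlap within a tissue, while Syp, Nsf and Synj1 in cortex, Rph3a in DKO and Doc2b in hippocampus stand apart; DKO is not described by the labels.

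The calcium sensors held the one call. Doc2b encodes a soluble protein with a pair of C2 domains that binds calcium at high affinity and acts in spontaneous and asynchronous release. It lies on chr11:75769090-75796057 (mm10) and has a single row. Doc2b had 8.79 FPKM in TRF2-depleted, 11.2 FPKM in DKO and 15.0 FPKM in control hippocampus, so both other conditions lay below control and TRF2-depleted lay lowest. The log2 ratio of TRF2-depleted over control was -0.77 (p = 5e-05, q = 0.0301 in the authors' deposited table). DKO over control gave -0.43 with p = 0.00045 and q = 0.162, not called, in the authors' deposited table. DKO over TRF2-depleted gave 0.34 with p = 0.00675 and q = 0.550, also not called, in the authors' deposited table. In cortex Doc2b had 1.43 FPKM in TRF2-depleted and 1.49 FPKM in control tissue, and the authors did not test it. Control hippocampus was 10.1 times control cortex for Doc2b, across tables that were normalised separately. Its relative Doc2a, which acts in the same kind of release at excitatory terminals, had 4.23, 4.43 and 3.51 FPKM in TRF2-depleted, DKO and control hippocampus. The p of Doc2a was 0.376 for TRF2-depleted and 0.206 for DKO over control in the authors' deposited table. Whether Doc2a and Doc2b differed in their ratios was not tested.

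Doc2b moved beside markers of dentate granule neurons, the principal cells of the dentate gyrus. These markers were chosen with earlier results of these data known, so their direction is no independent support. Of 13 such markers, 12 had a value in both conditions, and 11 of those were lower in TRF2-depleted than in control hippocampus. Of all genes with a value in both, 7347 of 15186 were lower. Dsp, C1ql2, Fam163b and Lct were called lower at q = 0.0301 in the authors' deposited table. That is 4 of 11 tested marker rows, against 0.163% of all 11054 tested rows. The summed FPKM of the 13 markers was 59.0 in TRF2-depleted, 69.1 in DKO and 96.4 in control hippocampus, the same order as Doc2b. Single markers in TRF2-depleted hippocampus lay between 0.486 and 18.7 FPKM, and Plk5 was the one listed at 0 in control. Their part in the Doc2b value was not tested, and in whole tissue fewer cells of a type and less RNA per cell cannot be told apart. Pan-neuronal markers summed to 687, 766 and 658 FPKM, CA pyramidal markers to 161, 176 and 152 FPKM and interneuron markers to 397, 405 and 358 FPKM in TRF2-depleted, DKO and control hippocampus. None of these sums was lower than control. Of the single markers, 4 of 10 pan-neuronal, 5 of 10 CA pyramidal and 2 of 8 interneuron ones were lower in TRF2-depleted than in control hippocampus. Choroid plexus markers summed to 496, 10.2 and 280 FPKM and meningeal markers to 313, 322 and 200 FPKM in the same order. Astrocyte, oligodendrocyte and microglia sums in TRF2-depleted hippocampus were 459, 798 and 85.1 FPKM, against 487, 768 and 83.2 FPKM in control. In cortex choroid plexus markers summed to 2.65 FPKM in TRF2-depleted and 98.2 FPKM in control tissue.

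**Figure D2:**
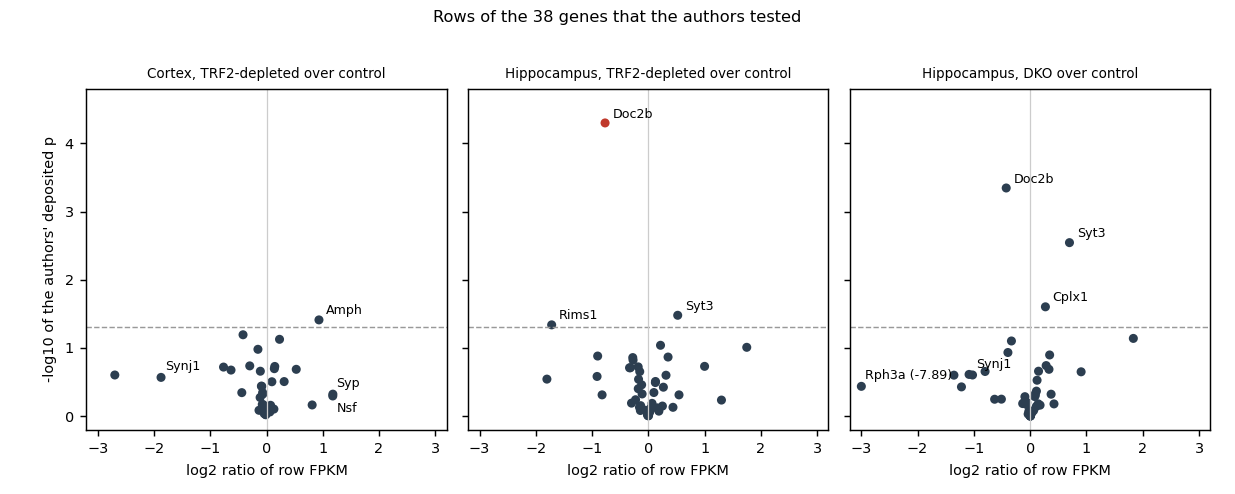
Every tested row of the 38 genes for TRF2-depleted over control cortex, and for TRF2-depleted and DKO over control hippocampus. The x axis is the log2 ratio of row FPKM and the y axis -log10 of the authors' deposited p. The dashed line is at p of 0.05, and ratios beyond 3 in size are drawn at 3. DKO over TRF2-depleted hippocampus is not drawn. Doc2b in TRF2-depleted hippocampus (red, log2 ratio -0.77) is the single row with a q of 0.05 or less, and most rows with a ratio beyond 1 in size lie below the dashed line.

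Syt3, a high-affinity calcium sensor, had 12.1 FPKM in TRF2-depleted, 13.7 FPKM in DKO and 8.43 FPKM in control hippocampus. Both other conditions lay above control. Its log2 ratios over control were 0.52 for TRF2-depleted (p = 0.0332, q = 0.867 in the authors' deposited table) and 0.70 for DKO (p = 0.00285, q = 0.405 in the authors' deposited table). In cortex it had 5.81 FPKM in TRF2-depleted and 7.14 FPKM in control tissue, the opposite order, with p = 0.183 in the authors' deposited table. The difference between the tissues was not tested.

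Syt1, the fast calcium sensor of forebrain synapses and the most abundant sensor in control hippocampus, summed to 180, 181 and 185 FPKM in TRF2-depleted, DKO and control hippocampus. It summed to 103 and 109 FPKM in TRF2-depleted and control cortex. Syt11 does not bind calcium and restrains endocytosis, but was counted with the sensors as a synaptotagmin. It was as even, at 95.8, 96.1 and 95.7 FPKM in the same hippocampal order, and at 89.5 and 93.6 FPKM in TRF2-depleted and control cortex. Syt4, a synaptotagmin induced by neuronal activity, had 37.7, 36.5 and 34.6 FPKM in TRF2-depleted, DKO and control hippocampus and 45.7 and 42.8 FPKM in TRF2-depleted and control cortex. The remaining sensors were low. Syt5 had 8.56, 6.63 and 9.45 FPKM in TRF2-depleted, DKO and control hippocampus, a DKO log2 ratio of -0.51 with p = 0.563 in the authors' deposited table. In cortex Syt5 had 11.9 FPKM in TRF2-depleted and 13.1 FPKM in control tissue. Syt7, a slow sensor of asynchronous release, summed over 3 rows to 4.06, 4.82 and 3.93 FPKM in TRF2-depleted, DKO and control hippocampus and to 2.54 and 3.30 FPKM in TRF2-depleted and control cortex, where none of its rows was tested. Doc2a had 7.33 and 7.49 FPKM in TRF2-depleted and control cortex. Syt2, the fast sensor of hindbrain and of some interneurons, was at or below 0.218 FPKM in every condition and was never tested, so no ratio is read from it. In direction, 7 of the 8 sensors other than Syt2 were lower in TRF2-depleted than in control cortex, against 8106 of 15060 genes in all. In hippocampus 5 of 8 were higher in TRF2-depleted than in control tissue, against 7839 of 15186, and Doc2b, called, was among the 3 lower.

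None of the SNARE and fusion genes was called, and they were the most abundant group. Snap25, the membrane SNARE SNAP-25, was the highest of the 38 in every condition, at 800 FPKM in TRF2-depleted and 734 FPKM in control cortex and 528, 502 and 501 FPKM in TRF2-depleted, DKO and control hippocampus. The larger of its rows had, in the authors' deposited table, p = 0.201 in cortex and 0.752 in TRF2-depleted hippocampus. Vamp2, the main synaptobrevin of the forebrain, had 224 and 227 FPKM in TRF2-depleted and control cortex and 191, 187 and 189 FPKM in TRF2-depleted, DKO and control hippocampus. Vamp1 summed to 27.4 and 25.1 FPKM in the same cortical order and to 18.6, 18.1 and 18.4 FPKM in the same hippocampal order. All conditions of both synaptobrevins lay within 1.2-fold of each other inside a tissue. Stx1a, syntaxin 1A, had 60.6 and 64.3 FPKM in TRF2-depleted and control cortex, and 21.1, 22.7 and 21.4 FPKM in TRF2-depleted, DKO and control hippocampus. Control cortex was 3.01 times control hippocampus for Stx1a, across separately normalised tables.

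Cplx1, complexin 1, had 129 FPKM in TRF2-depleted, 134 FPKM in DKO and 111 FPKM in control hippocampus. The log2 ratio of Cplx1 was 0.27 for DKO over control (p = 0.0249, q = 0.812) and 0.22 for TRF2-depleted over control (p = 0.0913), in the authors' deposited table. In cortex Cplx1 had 148 FPKM in TRF2-depleted and 160 FPKM in control tissue (p = 0.219 in the authors' deposited table). Cplx2, its close relative, ran the other way in hippocampus, at 109, 117 and 123 FPKM in TRF2-depleted, DKO and control tissue, with p = 0.288 for TRF2-depleted over control in the authors' deposited table. Cplx2 had 83.6 and 89.1 FPKM in TRF2-depleted and control cortex. Napa, the SNAP adaptor of NSF, had 47.5 and 47.9 FPKM in TRF2-depleted and control cortex and 40.8, 44.7 and 45.4 FPKM in TRF2-depleted, DKO and control hippocampus. Stxbp5, tomosyn, an inhibitor of SNARE assembly, had 8.99 and 9.07 FPKM in TRF2-depleted and control cortex and 8.38, 8.75 and 9.49 FPKM in TRF2-depleted, DKO and control hippocampus. In hippocampus 9 of 9 genes of this group lay within 1.2-fold between TRF2-depleted and control tissue, against 77.3% of all genes with at least 5 FPKM.

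Nsf, the ATPase that disassembles SNARE bundles, and Syp, synaptophysin, the abundant vesicle membrane protein, were high in hippocampus and low in cortex. Nsf had 175, 174 and 176 FPKM in TRF2-depleted, DKO and control hippocampus, and 3.90 FPKM in TRF2-depleted and 1.73 FPKM in control cortex. Syp had 222, 226 and 212 FPKM in TRF2-depleted, DKO and control hippocampus, and 4.04 FPKM in TRF2-depleted and 1.79 FPKM in control cortex. Both cortical log2 ratios of TRF2-depleted over control were 1.18, and neither passed, with p = 0.506 for Nsf and 0.476 for Syp in the authors' deposited table. Of 228 genes with at least 100 FPKM in control hippocampus, these 2 were the only ones under 5 FPKM in both cortical conditions, a limit chosen after their values were seen. In the other direction 1 of 210 genes, Rpl32, met the same limits. Both genes have a single row in these tables, and the tables were normalised separately. What sets their cortical values was not tested, so the cortical ratios of Nsf and Syp are given as values only.

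**Figure D3:**
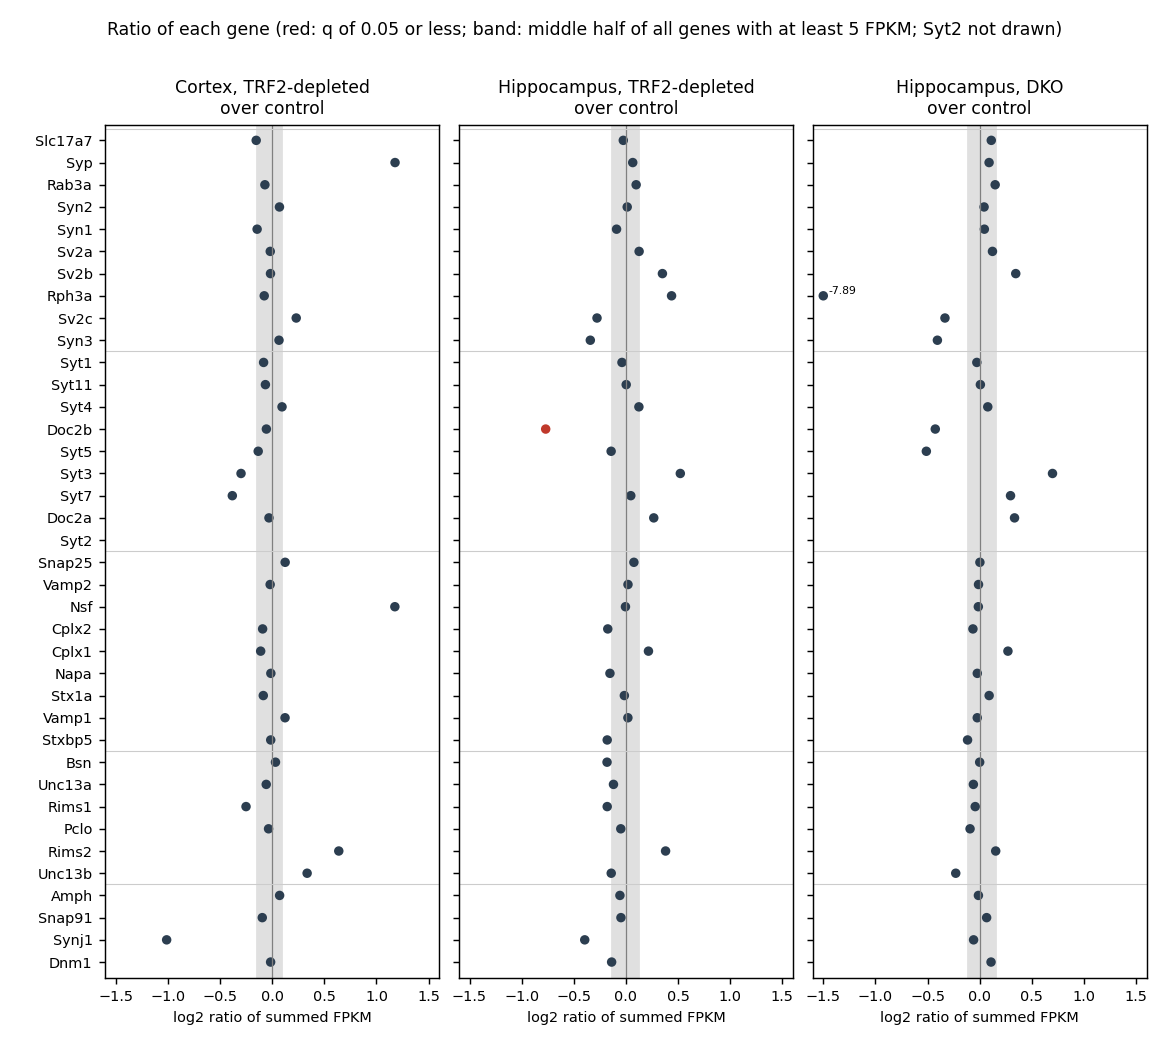
The log2 ratio of summed FPKM over control for each gene in 3 comparisons, grouped by role; the grey band holds the middle 50% of all genes with at least 5 FPKM in 1 condition, and Syt2, at or below 0.218 FPKM throughout, is not drawn. Doc2b (red, -0.77) is the 1 gene with a called row, Rph3a in DKO lies off the axis at -7.89, and Syp, Nsf and Synj1 lie farthest from 0 in cortex without a call.

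The vesicle proteins carried no call. Slc17a7, the vesicular glutamate transporter VGLUT1 and the most abundant of them in control hippocampus, had 235 FPKM in TRF2-depleted, 258 FPKM in DKO and 239 FPKM in control hippocampus. In cortex it had 204 FPKM in TRF2-depleted and 227 FPKM in control tissue, a log2 ratio of -0.15 with p = 0.105 in the authors' deposited table. Rab3a, the GTPase that guides vesicles to the active zone, had 188 and 197 FPKM in TRF2-depleted and control cortex and 194, 201 and 181 FPKM in TRF2-depleted, DKO and control hippocampus. The conditions of both genes lay close together inside each tissue.

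Among the SV2 glycoproteins, which modulate priming, Sv2b had the largest ratio in hippocampus. Sv2b had 37.6 FPKM in TRF2-depleted and 37.4 FPKM in DKO, against 29.5 FPKM in control hippocampus. Both of its log2 ratios over control were 0.35, with p = 0.136 for TRF2-depleted and 0.127 for DKO in the authors' deposited table. In cortex Sv2b had 48.2 and 48.7 FPKM in TRF2-depleted and control tissue. Sv2a had 57.4, 57.3 and 52.6 FPKM in TRF2-depleted, DKO and control hippocampus and 63.7 and 64.5 FPKM in TRF2-depleted and control cortex. Sv2c, the form of basal ganglia, had 2.42, 2.33 and 2.94 FPKM in TRF2-depleted, DKO and control hippocampus. In cortex Sv2c had 4.87 and 4.15 FPKM in TRF2-depleted and control tissue, with p = 0.0746 in the authors' deposited table.

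Synapsins bind vesicles to actin and to each other. Syn2 summed to 106, 108 and 105 FPKM in TRF2-depleted, DKO and control hippocampus and to 60.0 and 57.2 FPKM in TRF2-depleted and control cortex. Syn3 summed to 2.32, 2.22 and 2.94 FPKM in TRF2-depleted, DKO and control hippocampus, both other conditions below control. The log2 ratio of Syn3 was -0.34 for TRF2-depleted and -0.41 for DKO, and its tested row had p = 0.195 for TRF2-depleted and 0.117 for DKO in the authors' deposited table. In cortex Syn3 summed to 3.04 and 2.91 FPKM in TRF2-depleted and control tissue.

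Rph3a, rabphilin, a Rab3 effector with a pair of C2 domains, had 6.66 FPKM in TRF2-depleted, 0.0207 FPKM in DKO and 4.92 FPKM in control hippocampus. Despite that gap the DKO log2 ratios of -7.89 over control and -8.33 over TRF2-depleted did not pass, with p = 0.365 and p = 0.229 in the authors' deposited table. TRF2-depleted over control gave 0.44 with p = 0.742 in the authors' deposited table. In cortex Rph3a had 31.7 FPKM in TRF2-depleted and 33.5 FPKM in control tissue. It was 1 of 2 genes in the table with at least 3 FPKM in control and TRF2-depleted hippocampus and under 0.05 FPKM in DKO, limits chosen after its values were seen.

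The active zone genes had no call. Bsn, bassoon, a scaffold that spans the active zone and the most abundant of the group in control hippocampus, had 27.6, 31.2 and 31.3 FPKM in TRF2-depleted, DKO and control hippocampus. Its p for TRF2-depleted over control was 0.189 in the authors' deposited table. In cortex Bsn had 30.3 and 29.7 FPKM in TRF2-depleted and control tissue. Pclo, piccolo, its relative, summed to 11, 10.7 and 11.4 FPKM in TRF2-depleted, DKO and control hippocampus and to 14.8 and 15.2 FPKM in TRF2-depleted and control cortex. Unc13b, the second Munc13 priming factor, summed to 1.84, 1.73 and 2.03 FPKM in TRF2-depleted, DKO and control hippocampus and to 2.33 and 1.85 FPKM in TRF2-depleted and control cortex. In direction 5 of the 6 genes were lower in TRF2-depleted than in control hippocampus, with Rims2 the exception, and none was called. Of all genes with a value in both conditions, 7347 of 15186 were lower. The direction of Rims2 depends on how its rows are read: its sum gave a log2 ratio of 0.38, but its row of highest mean FPKM, the only one tested there, had 1.05 FPKM in TRF2-depleted and 1.86 FPKM in control hippocampus, a ratio of -0.82 with p = 0.487 in the authors' deposited table. The direction of Unc13b depends on it too, with -0.14 from its sum. Its only tested row had 1.83 FPKM in TRF2-depleted and 0.917 FPKM in control hippocampus, a ratio of 1.00 (p = 0.186 in the authors' deposited table). Its other row had 0.00837 and 1.11 FPKM in that order. Over the 6 sums the median was -0.13 on the log2 scale. Of these genes 5 of 6 lay within 1.2-fold, against 56.4% of all genes and 77.3% of those with at least 5 FPKM.

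Rims1 and Rims2 encode the RIM scaffolds that hold calcium channels and priming factors at the release site. Rims2 summed over 4 rows to 4.14, 3.54 and 3.18 FPKM in TRF2-depleted, DKO and control hippocampus and to 6.01 and 3.86 FPKM in TRF2-depleted and control cortex. Its cortical log2 ratio was 0.64, and its 1 tested cortical row had p = 0.206 in the authors' deposited table. Rims1 summed to 13.1, 14.4 and 14.8 FPKM in TRF2-depleted, DKO and control hippocampus and to 20.8 and 24.8 FPKM in TRF2-depleted and control cortex. Its hippocampal rows were divided differently between the conditions. The second row of Rims1 had 1.5 FPKM in TRF2-depleted, 2.32 FPKM in DKO and 4.93 FPKM in control hippocampus. The log2 ratio of TRF2-depleted over control for that row was -1.72, with p = 0.0458 and q = 0.886 in the authors' deposited table. The third row went the other way, with 6.93 FPKM in TRF2-depleted, 7.35 FPKM in DKO and 2.06 FPKM in control hippocampus, and p = 0.0978 for TRF2-depleted and 0.0724 for DKO in the authors' deposited table. The fourth row had 3.62, 3.88 and 6.76 FPKM and the first 1.05, 0.845 and 1.08 FPKM in TRF2-depleted, DKO and control hippocampus. The third row held 52.9% of the sum in TRF2-depleted and 51.1% in DKO, against 13.9% in control hippocampus. Its share in cortex was 50.7% in TRF2-depleted and 38.9% in control tissue. Unc13b and Rims2, both under 5 FPKM in hippocampus, were also divided differently there. The tested row of Unc13b held 99.5% of its sum in TRF2-depleted and 99.2% in DKO, against 45.2% in control hippocampus. For the tested row of Rims2 these shares were 25.4% and 34.0%, against 58.6%. No row passed, and the shares themselves carry no test.

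**Figure D4:**
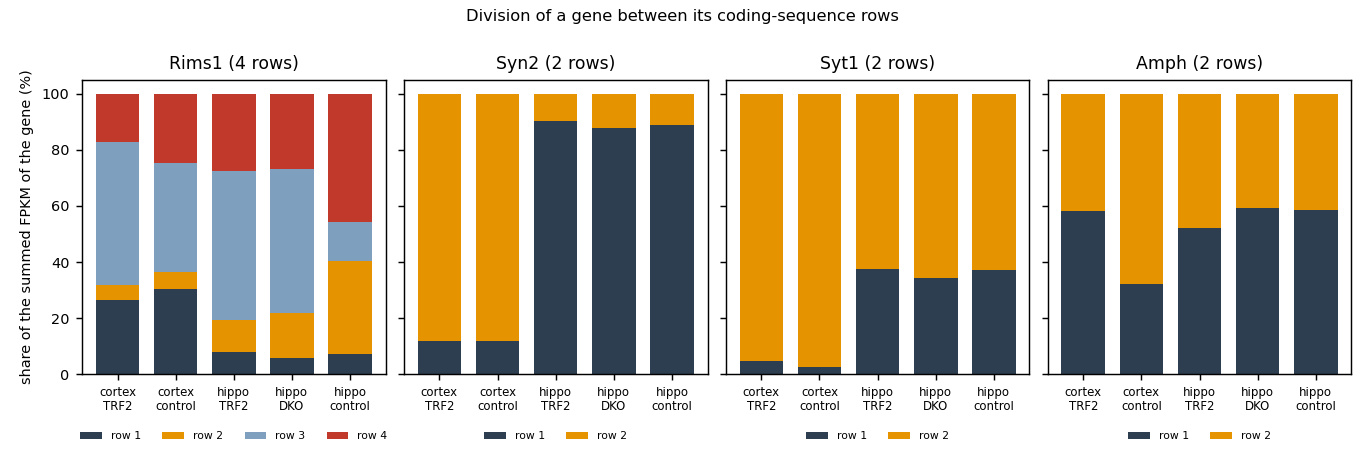
Share of the summed FPKM of Rims1, Syn2, Syt1 and Amph held by each coding-sequence row, as stacked bars from 0 to 100% for TRF2-depleted and control cortex and for TRF2-depleted, DKO and control hippocampus, with rows in the order of the deposited tables. Rims1 differs between hippocampal control and the other hippocampal conditions, Amph between the cortical conditions, and Syn2 and Syt1 between tissues while their conditions are alike inside a tissue.

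Endocytosis genes had no call either. Amph, amphiphysin, which recruits dynamin to clathrin-coated pits and was the most abundant of the group in control hippocampus, gave the smallest p of the 38 genes in cortex. Its first row had 20.8 FPKM in TRF2-depleted and 10.9 FPKM in control cortex, or 0.93 as a log2 ratio (p = 0.0388, q = 0.426 in the authors' deposited table). The other row had 14.8 FPKM in TRF2-depleted and 23.0 FPKM in control cortex (p = 0.211 in the authors' deposited table). The sums were 35.6 FPKM in TRF2-depleted and 33.9 FPKM in control cortex, so the rows differed in opposite directions around a similar total. The first row held 58.3% of the sum in TRF2-depleted and 32.1% in control cortex, and 52.2%, 59.4% and 58.7% in TRF2-depleted, DKO and control hippocampus. Amph summed to 46.4, 47.9 and 48.3 FPKM in TRF2-depleted, DKO and control hippocampus.

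Synj1, synaptojanin 1, the lipid phosphatase that strips clathrin from new vesicles, summed to 2.13 FPKM in TRF2-depleted and 4.29 FPKM in control cortex, a log2 ratio of -1.01. Its tested cortical row had 0.903 FPKM in TRF2-depleted and 3.31 FPKM in control tissue with p = 0.270 in the authors' deposited table. What sets the cortical values of Synj1 was not tested, and the tables of the tissues were normalised separately. In hippocampus Synj1 was far higher, at 27.7, 35.0 and 36.4 FPKM in TRF2-depleted, DKO and control tissue. The log2 ratio of TRF2-depleted over control there was -0.40, and its larger row had p = 0.195 in the authors' deposited table. Dnm1, dynamin 1, the GTPase that cuts vesicles free, had 32.7, 38.8 and 36.0 FPKM in TRF2-depleted, DKO and control hippocampus and 37.5 and 37.9 FPKM in TRF2-depleted and control cortex. Snap91, the clathrin adaptor AP180, summed over 5 rows to 46.6, 50.4 and 48.1 FPKM in TRF2-depleted, DKO and control hippocampus and to 35.6 and 38 FPKM in TRF2-depleted and control cortex. All 4 genes were lower in TRF2-depleted than in control hippocampus, with a median log2 ratio of -0.10 and 3 of 4 within 1.2-fold. In all, 7347 of 15186 genes were lower, and 77.3% of genes with at least 5 FPKM lay within 1.2-fold.

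For Syn2 and Syt1 the division between rows also differed between the tissues, while the conditions were alike inside each. The first row of Syn2 held 11.9% of the sum in TRF2-depleted and 12% in control cortex, but 90.2%, 87.9% and 89.0% in TRF2-depleted, DKO and control hippocampus. The first row of Syt1 held 4.64% in TRF2-depleted and 2.50% in control cortex, but 37.7%, 34.5% and 37.1% in TRF2-depleted, DKO and control hippocampus. Rows were matched between the tables by identifier, and all 60 carried the same gene symbol in both. Over the 37 genes with at least 1 FPKM in a control, the median log2 ratio of control hippocampus over control cortex was -0.08, against 0.10 for 11370 genes in all. A test of the tissues against each other was not made here, since the tables were normalised separately.

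A list of 106 other genes of the vesicle cycle, of which 104 were in the tables, was read beside the 38. Stxbp6, amisyn, which competes for the SNARE bundle, was the only one called. Stxbp6 fell to 8.44 FPKM in TRF2-depleted and 8.79 FPKM in DKO hippocampus, against 15.7 FPKM in control hippocampus, with log2 ratios of -0.89 and -0.83 and q = 0.0301 for both in the authors' deposited table. The called count was thus 1 of 111 tested rows for TRF2-depleted over control hippocampus, or 0.901% against 0.163% of all rows, and 1 of 110 for DKO over control, or 0.909% against 0.181%. It was 0 of 102 in cortex (0.304% of all rows) and 0 of 107 for DKO over TRF2-depleted (0.154%). Their median log2 ratios were -0.01 in cortex, 0.02 for TRF2-depleted and 0.04 for DKO over control hippocampus and 0.03 for DKO over TRF2-depleted.

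At an unadjusted p under 0.05 the other list had 6 of 102 tested rows in cortex, or 5.88% against 6.24% of all rows, from 6 genes of which 4 were higher and 2 lower in TRF2-depleted tissue. Sncb, beta-synuclein, had 121 FPKM in TRF2-depleted and 147 FPKM in control cortex (p = 0.0032, q = 0.136 in the authors' deposited table). Vti1b, an endosomal SNARE, had 34.3 and 24.5 FPKM (p = 0.0194), and Apba1, the Munc18-binding adaptor Mint1, had 5.22 and 11.1 FPKM (p = 0.0219) in TRF2-depleted and control cortex in the authors' deposited table. A row of Dnm3, dynamin 3, had 11.5 and 8.71 FPKM in TRF2-depleted and control cortex (p = 0.0345 in the authors' deposited table). These 4 had the smallest p of that list in cortex, and none was called.

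In TRF2-depleted against control hippocampus the same list had 10 of 111 tested rows at an unadjusted p under 0.05, or 9.01% against 4.89% of all rows, 6 higher and 4 lower. A row of Picalm, a clathrin adaptor related to AP180, had 3.77 FPKM in TRF2-depleted and 12.6 FPKM in control hippocampus (p = 0.0001, q = 0.0552 in the authors' deposited table), while its 6 rows summed to 12.1 and 19.0 FPKM. Svop, a vesicle protein related to SV2, had 21.9 and 14.9 FPKM (p = 0.0039), and a row of Cadps2, a priming factor of dense-core vesicles, had 12.4 and 7.97 FPKM (p = 0.0054) in TRF2-depleted and control hippocampus in the authors' deposited table. Stxbp6 is the fourth. For DKO over control there were 15 of 110 rows, or 13.6% against 6.71% of all rows, 9 higher and 6 lower. Neither difference in share was tested. Besides Stxbp6 these included rows of Synpr, synaptoporin, with 26.7 FPKM in DKO and 35.7 FPKM in control (p = 0.00095), and of Picalm, with 4.64 FPKM in DKO and 12.6 FPKM in control (p = 0.00355), as listed in the authors' deposited table. Dnm3 had a row at 9.08 FPKM in DKO and 5.87 FPKM in control hippocampus (p = 0.0086 in the authors' deposited table). For DKO over TRF2-depleted there were 6 of 107 rows, or 5.61% against 4.79% of all rows, 5 higher and 1 lower. Their 4 lowest p in the authors' deposited table were 0.0130 for Rab27a, 0.0159 for Syngr2, 0.0204 for Ap2s1 and 0.0253 for Rab3b. Rab27a had 1.95 FPKM in DKO and 1.23 FPKM in TRF2-depleted hippocampus, Syngr2 2.89 and 1.65, Ap2s1 78.9 and 64.4, and Rab3b 7.59 and 9.42 FPKM in that order.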

How the data were processed

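Total RNA was extracted with RNeasy columns and made into NEBNext Ultra libraries, as the labels' protocols say. Per the submitters' processing notes, CASAVA 1.8, TopHat2, Cufflinks and Cuffdiff were used with build mm10; the annotation and other versions are not stated in these sources. The authors deposited FPKM per coding-sequence row, 1 pooled value per condition, per the file headers. Each row has a p-value and q-value deposited by the authors. Cuffdiff divides reads that fit several rows of a gene between them, which can move single rows against each other. A Benjamini-Hochberg adjustment over the hippocampus table gives its q-values to within 5.26e-07, the smallest being 0.0301. For cortex the same step is off by up to 0.335, and the basis of those q-values is not stated.

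FPKM were summed over rows of the same symbol with Python 3.11.15, numpy 2.4.6 and pandas 2.3.3, and log2 ratios were taken without a pseudocount. Row calls use the deposited q of 0.05 or less and were set beside all tested rows; the steps were checked on simulated data. No label says which animal a sample came from, so a p-value covers only sample spread, which may be technical. The genes, lists and markers were chosen with earlier results of these data known. Named with tests were members with a called row or an unadjusted p under 0.05, the 3 highest and 3 lowest ratios per comparison at 1 FPKM or more, the most abundant of each role, and of other vesicle-cycle genes those called or the up to 4 smallest p. Cplx2, Sv2c and Unc13b are given with a p outside these rules. The 1.2-fold count, the motifs and the shown promoters were chosen after the values were seen. Sequences are RefSeq's, and coordinates count from 1.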

Additional observations from a re-analysis of the deposited data

How the results depend on the processing

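At a q threshold of 0.01 the count of called rows in TRF2-depleted against control hippocampus was 0, since the smallest deposited q there is 0.0301. With an unadjusted p under 0.05 in place of q the counts were 1 in TRF2-depleted cortex, 3 in TRF2-depleted hippocampus, 3 for DKO over control and 1 for DKO over TRF2-depleted. A q threshold of 0.1 and readjusted p-values left the count at 1 in TRF2-depleted against control hippocampus and at 0 in the other comparisons. A minimum of 1 FPKM and a minimum fold of 1.5 were put on called rows only. These limits cannot raise a count of 0, and Doc2b met both by its values. All 28 alternative medians lay within 0.1 of the value given: -0.03 to -0.01 in TRF2-depleted cortex, -0.04 to -0.01 in TRF2-depleted hippocampus, -0.02 to 0.01 for DKO over control and 0.03 to 0.05 for DKO over TRF2-depleted. One of these, without Nsf, Syp, Synj1, Rph3a and Syt2, was chosen after seeing the data. For Doc2b the log2 ratio of TRF2-depleted over control hippocampus ran between -0.78 and -0.71. Of 304 alternative ratios of 19 named genes, 25 moved by more than 0.1. The called ratio, that of Doc2b, kept its sign. Added FPKM cannot turn a sign and its single row equals its sum, so only centring on all genes could have turned it. With the highest row in place of the sum, uncalled Rims2 went to -0.82 in TRF2-depleted hippocampus, where the sum gave 0.38, and uncalled Amph to -0.63 in TRF2-depleted cortex, where the sum gave 0.07. Rims1 in cortex went from -0.25 to 0.13, and Rims2 for DKO over control from 0.15 to -0.63. For DKO over TRF2-depleted, Rims2 went from -0.23 to 0.02 and Syt7 from 0.25 to -0.12. Amph, Synj1 and Syt1 for DKO over control changed sign within 0.1 of 0. The cause was not tested. With 1 FPKM added, the DKO over control ratio of Rph3a was -2.54. No paired analysis was possible because the tables hold 1 pooled value per condition, and for the same reason no sample could be left out. Counting error is not given, because the tables hold no depth.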
